A study of Mus musculus with 16 samples.

Results

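Antiviral interferon-stimulated effector genes are the genes whose products block viruses inside cells that have received an interferon signal. A set of 38 such mouse genes was followed by gene symbol through RNA sequencing of the B16F10 melanoma line, out of 13143 genes listed for TDM culture, 13284 for TDMa culture and 14933 for TDMa tumours. TDM culture listed 36 of the 38, without Parp12 and Epsti1. TDMa culture listed 32, without Parp12, Epsti1, Oas3, Ifi44, Ddx60 and Sp110. The tumours listed all 38. A gene entered the test at a mean normalised count of at least 10, which left 34 genes in TDM culture (not Oas3 or Sp110), 31 in TDMa culture (not Oas1g) and 38 in tumours.

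B16F10 is an established mouse melanoma line, and the samples come from its derivatives B16F10-TDM and B16F10-TDMa, whose names the labels do not spell out. Cells of both lines received a guide RNA, either sgNlrc5, directed at Nlrc5, or sgScramble, the control guide, and the series title speaks of demethylating and activating NLRC5. The 16 libraries were TDM culture and TDMa culture, with 2 sgNlrc5 and 2 sgScramble libraries each, and TDMa tumours, labelled VIVO, with 4 sgNlrc5 and 4 sgScramble libraries. No untransduced cells were among them, and the labels used here give neither the host mouse and its age, nor the time of tumour growth, nor whether a line was a clone, nor whether replicates were separate cultures or animals. The p-values below therefore measure the spread between these libraries, which may be technical.

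Type I interferon binds a receptor made of IFNAR1 and IFNAR2, the kinases JAK1 and TYK2 then become active, and a complex that holds STAT2 and IRF9 forms and binds interferon-stimulated response elements in promoters. Interferon gamma, which has a receptor of its own, acts at gamma-activated sites. The effector genes downstream differ in what they attack: IFIT proteins hold foreign RNA, OAS enzymes sense it and set off its decay, MX proteins trap viral nucleocapsids, and ISG15 is attached to proteins as a ubiquitin-like tag. Tumour cells with a standing interferon signal often express many of these genes without any virus, and so do leukocytes within tumours. NLRC5 is itself induced by interferon and is best known as a transactivator of MHC class I genes.

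The promoters of several of these genes are printed because they carry the letters that the interferon-activated complex reads. Each line gives the 200 bases before the transcription start, 5′ to 3′ along the gene, from the RefSeq promoter table of build GRCm38.p6. Capitals mark GAAANNGAAA, the core of the response element, or the same letters on the other strand, TTTCNNTTTC. Neighbouring matches can overlap. Ifit1, Ifit3, Ifit3b and Ifit2 come from the same stretch of chromosome 19, with 2 windows for Ifit2.
Ifit1, chr19:34640689-34640888 (plus strand): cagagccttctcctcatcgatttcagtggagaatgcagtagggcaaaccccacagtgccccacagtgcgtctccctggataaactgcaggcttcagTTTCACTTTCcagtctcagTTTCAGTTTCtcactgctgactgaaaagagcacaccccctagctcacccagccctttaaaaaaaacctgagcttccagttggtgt
Ifit3, chr19:34583329-34583528 (plus strand): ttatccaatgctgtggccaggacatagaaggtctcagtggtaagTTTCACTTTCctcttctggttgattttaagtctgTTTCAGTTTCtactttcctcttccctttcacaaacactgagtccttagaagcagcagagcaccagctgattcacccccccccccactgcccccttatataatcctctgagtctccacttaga
Ifit3b, chr19:34607757-34607956 (plus strand): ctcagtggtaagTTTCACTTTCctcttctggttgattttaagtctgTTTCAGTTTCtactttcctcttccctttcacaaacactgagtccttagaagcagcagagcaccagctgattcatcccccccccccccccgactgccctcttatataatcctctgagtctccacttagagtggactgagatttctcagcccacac
Ifit2 first window, chr19:34550494-34550693 (plus strand): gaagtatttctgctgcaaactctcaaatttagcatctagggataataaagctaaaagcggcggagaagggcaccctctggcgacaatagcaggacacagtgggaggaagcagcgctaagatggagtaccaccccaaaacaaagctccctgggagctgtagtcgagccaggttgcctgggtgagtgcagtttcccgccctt
Ifit2 second window, chr19:34550888-34551087 (plus strand): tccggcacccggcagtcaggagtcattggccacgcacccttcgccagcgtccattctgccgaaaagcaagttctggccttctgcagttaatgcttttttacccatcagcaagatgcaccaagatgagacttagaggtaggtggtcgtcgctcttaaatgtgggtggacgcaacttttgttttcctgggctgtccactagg
Isg15, chr4:156200819-156201018 (minus strand): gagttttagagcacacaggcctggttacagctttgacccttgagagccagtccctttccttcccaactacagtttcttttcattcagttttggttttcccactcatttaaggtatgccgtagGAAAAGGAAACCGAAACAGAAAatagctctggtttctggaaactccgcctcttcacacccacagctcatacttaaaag
Oas1a, chr5:120907526-120907725 (minus strand): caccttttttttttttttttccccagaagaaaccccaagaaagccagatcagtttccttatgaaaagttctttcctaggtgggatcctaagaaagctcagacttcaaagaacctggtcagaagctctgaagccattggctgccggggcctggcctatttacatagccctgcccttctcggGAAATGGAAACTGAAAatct
Oas1g, chr5:120887614-120887813 (minus strand): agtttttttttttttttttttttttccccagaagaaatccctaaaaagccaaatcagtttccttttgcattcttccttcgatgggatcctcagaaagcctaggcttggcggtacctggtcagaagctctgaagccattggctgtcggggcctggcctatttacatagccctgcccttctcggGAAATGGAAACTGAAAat
Rsad2, chr12:26456453-26456652 (minus strand): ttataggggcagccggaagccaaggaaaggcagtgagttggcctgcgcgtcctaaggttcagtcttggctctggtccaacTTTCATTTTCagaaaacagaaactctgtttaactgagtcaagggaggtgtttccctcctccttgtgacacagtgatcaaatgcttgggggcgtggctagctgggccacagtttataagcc

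In Ifit1 the matches began 104 and 85 bases before the start, in Ifit3 156 and 122, and in the near-copy Ifit3b 188 and 154, all on the strand opposite to the gene. Isg15 held 3 overlapping matches, 78, 72 and 66 bases before the start. Oas1a and Oas1g held the same overlapping letters, at 20 and 14 bases and at 18 and 12 bases, and Rsad2 had its match 120 bases before the start. Over windows reaching 250 bases before and 50 after the start, 29 of the 38 genes had at least 1 window, and 13 of the 29 held the motif: the 7 above with a match, and Oas3, Bst2, Ifitm3, Shisa5, Ddx60 and Lgals9. By windows this was 13 of 38 (34.2%), against 1131 of all 32851 promoter windows (3.44%). The gamma-activated site letters TTCNNNGAA, which read the same on both strands, were in 7 of the 38 windows (18.4%), against 2726 of all (8.3%). A match describes letters and shows no binding, and the absence of a match in Ifit2 says only that these letters are not in the windows searched. Oas1b, Oas2, Mx1, Mx2, Usp18, Rtp4, Parp9, Parp14 and Ifi27 were without a window in the table.

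**Figure D1:**
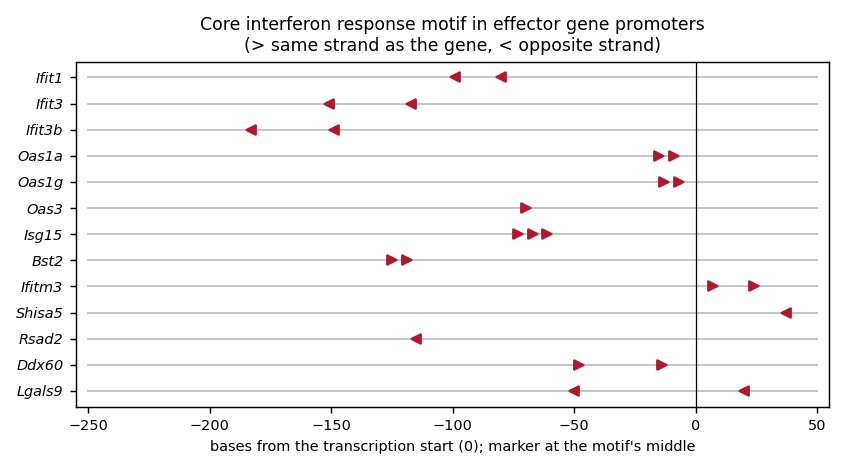
Positions of the response element core in the 13 effector genes that hold it, as bases from the transcription start (0), with each grey line a window of 250 bases before to 50 after the start. Markers pointing right lie on the gene's strand and markers pointing left on the opposite strand, and matches lie after the start in Ifitm3, Shisa5 and, for 1 of its 2, Lgals9.

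Depth ran from 12183889 to 16390886 recovered reads per library over the listed genes, and a gene at a normalised count of 10 therefore rested on about 10 reads in a library. Nlrc5, the gene the guide was directed at, had 57.4 to 78.6 normalised counts in sgNlrc5 libraries of TDM culture, against 12.7 to 22.9 in sgScramble libraries. In TDMa culture its range was 3142 to 3146 with sgNlrc5, against 242 to 254 with sgScramble, and in tumours 3434 to 4381 against 257 to 837. The sgNlrc5 libraries lay above the sgScramble libraries in all 3 settings. All 7 melanocyte lineage markers (Pmel, Mlana, Dct, Tyrp1, Tyr, Mitf, Sox10) were listed in each table. Of 24 leukocyte markers, 4 were listed in each culture table and 17 in tumours, and the T cell markers Cd3e, Cd8a and Cd4 and the pan-leukocyte marker Ptprc were in neither culture table. The 4 listed in TDM culture included Cd3d, a T cell receptor subunit gene, at a mean of 565 normalised counts with sgNlrc5 and 527 with sgScramble, and Coro1a, a leukocyte actin-binding protein gene, at 236 with sgNlrc5 and 192 with sgScramble, neither called. Cd3d was not listed in TDMa culture.

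The same guide went with opposite directions in TDMa cells in culture and in TDMa tumours. In TDMa culture 28 of 31 effector genes were lower with sgNlrc5 and 0 were higher, where over all genes 16.9% were called lower and 17.3% higher. In tumours 31 of 38 were higher and 0 lower, where over all genes 19.7% were called higher and 19.7% lower. In TDM culture 0 of 34 were called in either direction, where 0.284% of all genes were called higher and 0.234% lower. The median log2 fold change of the effector genes was -1.19 in TDMa culture, 1.03 in tumours and 0.15 in TDM culture, beside -0.00064, -0.010 and 0.00033 over all genes tested.

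Gene by gene, the 31 genes tested in both TDMa settings were all below 0 in culture and all above 0 in tumours. Both calls were made for 24 of them (77.4%), beside 3.47% of the 11782 genes tested in both settings. Another 4, Ifit1, Mx1, Samd9l and Lgals9, were lower in TDMa culture without a call in tumours. Ifit2 was higher in tumours without a call in culture, and Herc6 and Isg20 had no call in any setting. Oas1g, Ddx60, Oas3, Parp12, Epsti1 and Sp110 were higher in tumours and not tested in TDMa culture, and Ifi44 was tested in TDM culture and in tumours without a call. In 23 genes the 3 values stood above 0 in TDM culture, below 0 in TDMa culture and above 0 in tumours.

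**Figure D2:**
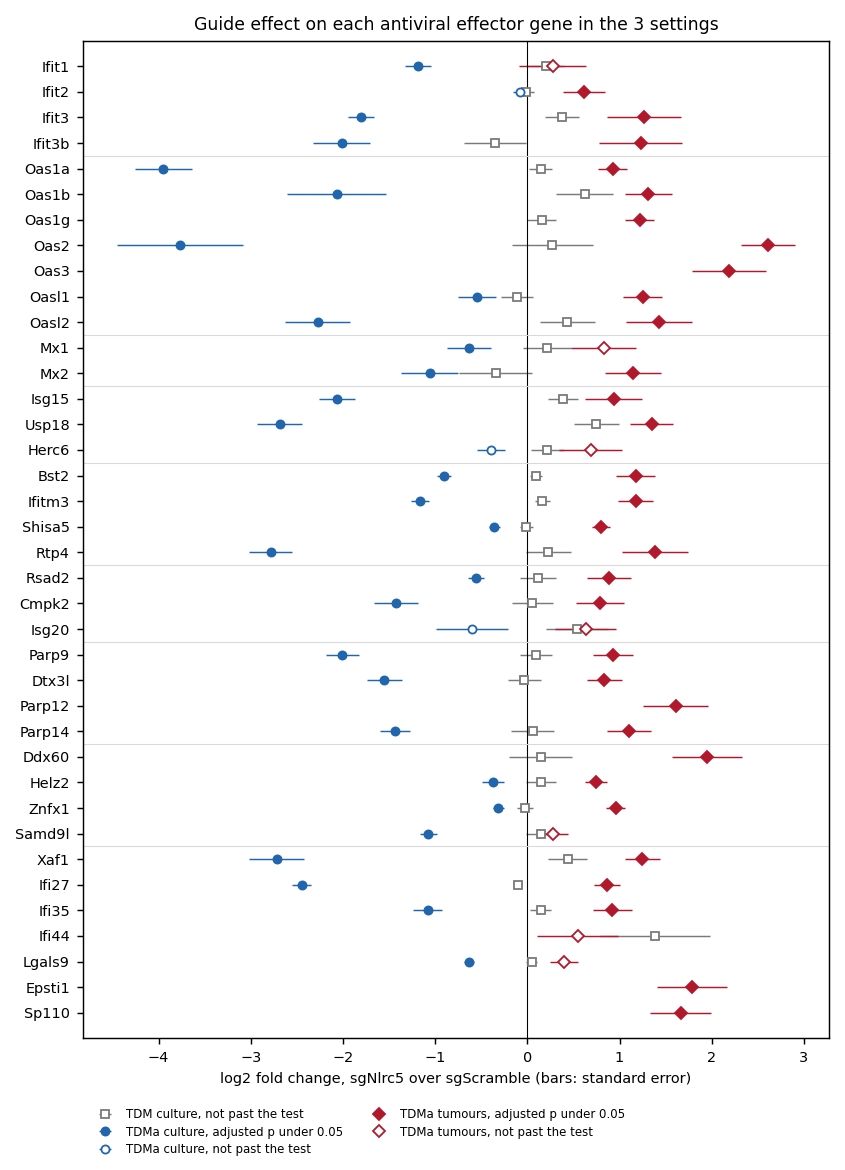
Log2 fold change of each effector gene, sgNlrc5 over sgScramble, with bars for the standard error: grey squares for TDM culture, blue circles for TDMa culture and red diamonds for TDMa tumours, filled where the adjusted p was under 0.05. Every blue marker lies left of 0 and every red marker right of 0, with 28 of 31 blue and 31 of 38 red filled, and no grey marker is filled.

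Separation of the libraries followed the calls only in part, as 31 genes were called in tumours and 22 were separate there. In TDMa culture both sgNlrc5 libraries lay below both sgScramble libraries in 30 of 31 genes, where 33.0% of all genes did so. In tumours the 4 sgNlrc5 libraries lay above the 4 sgScramble libraries in 22 of 38 genes, where 18.1% of all genes did so, and the groups overlapped in the other 16. In TDM culture the groups overlapped in 32 of 34 genes, with Ifi44 above and Ifi27 below. The share over all genes was not taken for TDM culture, so nothing is read from that count.

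Single libraries were high or low across many of the genes. In TDM culture sgNlrc5 replicate 2 was the highest of the 4 libraries in 32 of 34 genes and sgNlrc5 replicate 1 the lowest in 21. Their median deviations from the sgScramble mean were 0.51 and -0.15 on the log2 scale, so that the 2 sgNlrc5 libraries stood on opposite sides of the control. In tumours sgScramble replicate 2 was the lowest of the 8 libraries in 35 of 38 genes, and sgScramble replicate 4 was the highest of its guide in 34. Median deviations were 1.07, 0.97, 0.87 and 1.27 in sgNlrc5 replicates 1 to 4, against -0.12, -0.66, 0.065 and 0.66 in sgScramble replicates 1 to 4. Over all genes these medians lay between -0.012 and 0.017.

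**Figure D3:**
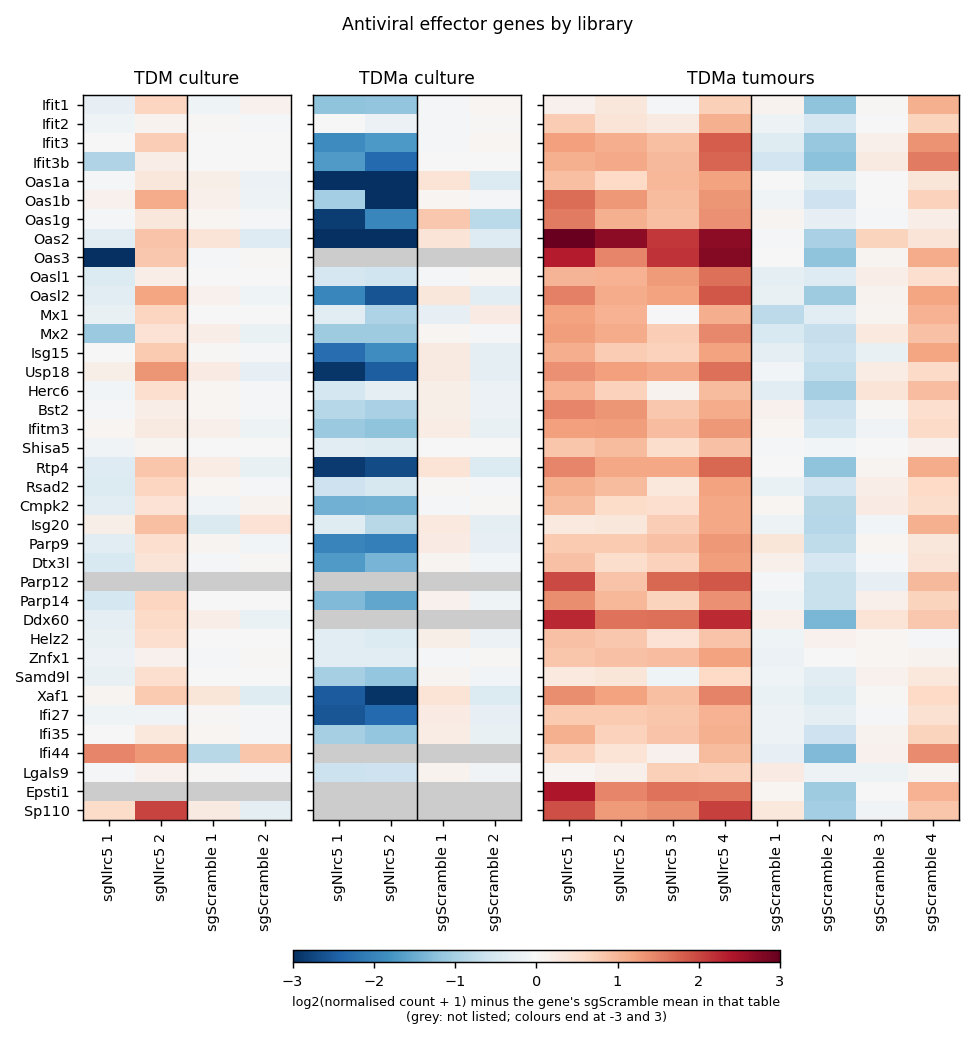
Each effector gene (rows) in each library (columns), as log2(normalised count + 1) minus the gene's sgScramble mean in the same table, with red above and blue below that mean and grey where a gene was not listed. Both sgNlrc5 columns of TDMa culture are blue almost throughout, the 4 sgNlrc5 tumour columns are red apart from 3 genes in replicate 3 (Ifit1, Mx1 and Samd9l, each slightly below the mean), and sgScramble tumour replicate 2 is blue and replicate 4 red in 37 of 38 genes each.

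The tumour values come from bulk RNA, in which more cells of a type and more RNA per cell cannot be told apart. Leukocyte markers were higher in the same tumours: of the 24, 14 were tested, 12 were higher and 0 lower (median log2 fold change 2.04). Over all genes 19.7% were called higher. Of the 12, Cd3e, Cd3d and Cd4 met the filter only through their sgNlrc5 libraries, with sgScramble means of 6.62, 6.45 and 5.34. The same held for Cd79a (sgScramble mean 8.06), which was tested and not called. The count and the median therefore lean on that filter. Among the markers, Cd8a of cytotoxic T cells was at 3.36 and C1qa of macrophages at 2.09. The summed normalised count of the 17 listed markers was 11534.6, 10951.7, 10932.2 and 9712.9 in sgNlrc5 tumours 1 to 4, against 2776.3, 2428.0, 2782.6 and 3563.5 in sgScramble tumours 1 to 4. Ncr1, Klrb1c, Ms4a1, Siglech, S100a9 and Cxcr2 were among those not listed in tumours. The sgScramble tumours stood in the same order for the effector median and the marker sum, with replicate 2 lowest, then 1 and 3, and replicate 4 highest. Of the sgNlrc5 tumours, replicate 4 had the highest effector median and the lowest sum of the 17 markers. Macrophage markers made up most of that sum, 7239.5 of 9712.9 in sgNlrc5 replicate 4. The pan-leukocyte markers Ptprc, Laptm5 and Coro1a did not put it lowest, with sums of 2937.1, 1932.5, 1813.7 and 1972.1 in sgNlrc5 tumours 1 to 4. In TDMa culture 4 of the 24 markers were listed, with sums of 1238.9 to 1254.6 in sgNlrc5 libraries, against 879.2 to 962.7 in sgScramble libraries, most of it Cd68, a lysosomal protein gene. The part of leukocytes in the tumour values was not tested.

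Markers of the melanocyte lineage moved in TDMa culture as well. There 6 of the 7 were higher with sgNlrc5 and 0 lower (median log2 fold change 0.49), where 17.3% of all genes were called higher. The higher ones included Tyr at 1.05 ± 0.11 and Pmel at 0.64 ± 0.023. The sum of the 7 was 202922.0 to 203883.2 in sgNlrc5 libraries, against 147030.6 to 149053.0 in sgScramble libraries. In tumours Mlana (0.53 ± 0.14) and Tyrp1 (0.42 ± 0.11) were higher and Tyr was lower (-0.95 ± 0.34), and in TDM culture 0 of 7 were called. Of the fibroblast markers, Col1a1 (-1.32 ± 0.21) and Pdgfra (-0.75 ± 0.26) were lower and Col1a2 higher (0.51 ± 0.14) in TDMa culture, and in tumours Col1a1 (0.82 ± 0.26) and Col1a2 (1.05 ± 0.26) were higher and Pdgfra lower (-1.35 ± 0.23). The part of these changes in the effector values was not tested.

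**Figure D4:**
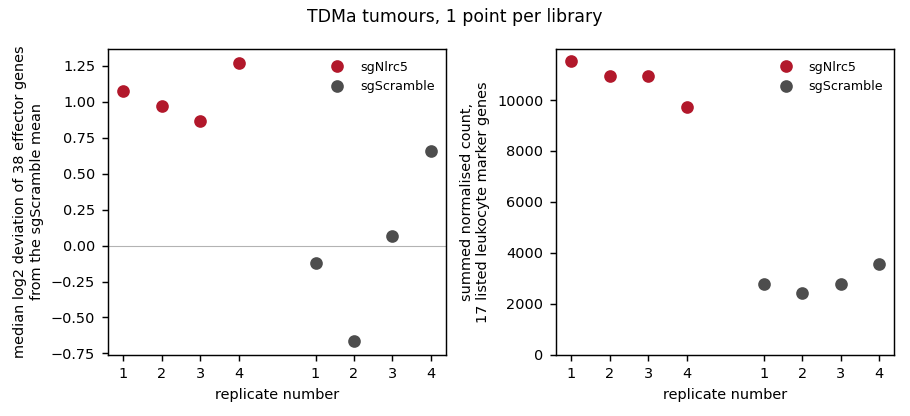
Left, the median over 38 effector genes of the log2 deviation from the sgScramble mean in each tumour library, and right, the summed normalised count of the 17 listed leukocyte markers, with sgNlrc5 in red and sgScramble in grey. All 4 sgNlrc5 tumours lie above all 4 sgScramble tumours in both panels, and the distance between guides is wide for the marker sum and narrow between sgNlrc5 replicate 3 (0.87) and sgScramble replicate 4 (0.66) for the effector genes.

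IFIT proteins bind RNA that lacks the marks of the cell's own messages and block its translation. Ifit3 (ENSMUSG00000074896) had 88.8 and 100.8 normalised counts in sgNlrc5 libraries of TDMa culture, against 322 and 345 in sgScramble libraries, a log2 change of -1.81 ± 0.14 (limma adjusted p = 8.8e-09). In TDMa tumours Ifit3 had 1612, 1463, 1286 and 2402 in sgNlrc5 libraries, against 534, 308, 756 and 1752 in sgScramble libraries (1.26 ± 0.40, adjusted p = 0.026). The culture groups stood well apart, whereas in tumours sgScramble replicate 4 reached into the sgNlrc5 range and exceeded 3 of its 4 libraries. In TDM culture Ifit3 had 182 and 304 in sgNlrc5 libraries, against 178 and 183 in sgScramble libraries (0.38 ± 0.18, adjusted p = 0.57), and the excess lay in sgNlrc5 replicate 2 alone.

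Ifit3b (ENSMUSG00000062488) shares many stretches with Ifit3: 44.5% of the 50-base words of its longest GENCODE vM21 transcript occurred in that of Ifit3, and 51.2% of those of Ifit3 occurred in Ifit3b, so the split of reads between them is uncertain. Its values were 20.2 and 12.6 normalised counts with sgNlrc5, against 67 and 68.5 with sgScramble, in TDMa culture (-2.02 ± 0.31, adjusted p = 5.5e-05). In tumours Ifit3b had 347, 368, 328 and 558 with sgNlrc5, against 111, 69.7, 199.8 and 488 with sgScramble (1.23 ± 0.45, adjusted p = 0.049), again with sgScramble replicate 4 inside the sgNlrc5 range. The tumour call of Ifit3 ended without sgNlrc5 replicate 4 or sgScramble replicate 1 or 2 or without the intensity trend (0.88 to 1.26, adjusted p = 0.06 to 0.072). That of Ifit3b ended without sgNlrc5 replicate 1, 2, 3 or 4 or sgScramble replicate 1, 2 or 3 or without the intensity trend (0.82 to 1.32, adjusted p = 0.055 to 0.13).

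Ifit1 (ENSMUSG00000034459), which grips the end of uncapped or incompletely capped RNA, had 112 and 114 normalised counts in sgNlrc5 libraries of TDMa culture, against 249.7 and 269 in sgScramble libraries (-1.19 ± 0.14, adjusted p = 2.0e-06). In tumours it had 205, 239, 179.9 and 308 with sgNlrc5, against 202, 81.2, 194 and 395 with sgScramble, and did not pass (0.28 ± 0.36, adjusted p = 0.58). Both the lowest and the highest of the 8 tumour values of Ifit1 were sgScramble libraries. Ifit2 (ENSMUSG00000045932) stood apart from its relatives in TDMa culture, at 782 and 696 with sgNlrc5, against 764 and 795 with sgScramble (-0.08 ± 0.071, adjusted p = 0.42), the only effector gene tested there whose groups overlapped. In tumours it had 968, 753, 689.9 and 1206 with sgNlrc5, against 519, 404, 569 and 909 with sgScramble (0.62 ± 0.23, adjusted p = 0.048). That call ended without sgNlrc5 replicate 1, 2 or 4 or sgScramble replicate 1, 2 or 3, without the intensity trend or with equal sums (0.45 to 0.70, adjusted p = 0.054 to 0.13). In TDM culture Ifit1, Ifit2 and Ifit3b had log2 fold changes of 0.20, -0.016 and -0.35, none called.

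OAS enzymes sense long base-paired RNA and make an oligoadenylate messenger in response, and they held the largest changes of the set in TDMa settings. Oas1a (ENSMUSG00000052776) had 8.99 and 8.72 normalised counts in sgNlrc5 libraries of TDMa culture, against 199.9 and 114 in sgScramble libraries, a log2 change of -3.95 ± 0.31 (limma adjusted p = 1.1e-08). In tumours Oas1a had 818, 667, 872 and 1021 with sgNlrc5, against 432, 343, 440.4 and 569 with sgScramble (0.93 ± 0.16, adjusted p = 9.4e-04). Neither setting had overlapping groups. In TDM culture Oas1a had 499 and 660.1 with sgNlrc5, against 590.1 and 457 with sgScramble, and the groups overlapped (0.14 ± 0.13, adjusted p = 0.78).

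Oas2 (ENSMUSG00000032690) came down to 1 read over both sgNlrc5 libraries of TDMa culture, against 41 reads over both sgScramble libraries, or 1.12 and 0 normalised counts against 24.9 and 14.3. The ratio was 0.0266, with a 95% counting interval of 0.000658 to 0.157, and the fitted log2 fold change of -3.77 ± 0.69 (adjusted p = 2.8e-04) depends on the pseudocount. Oas2 met the filter in TDMa culture only through its sgScramble libraries, as its sgNlrc5 values lay far below it. The size of the fall is therefore uncertain, and the call is counted in the totals for TDMa culture and for both differences between settings. In tumours Oas2 had 1087, 893, 603 and 894 with sgNlrc5, against 132, 69.7, 221 and 179.9 with sgScramble, the largest rise among the 38 genes (2.61 ± 0.30, adjusted p = 8.1e-05). The lowest sgNlrc5 tumour lay well above the highest sgScramble tumour. Oas3 (ENSMUSG00000032661), not listed in TDMa culture, had 483, 262, 426 and 635 in sgNlrc5 tumours, against 94.2, 40.1, 99.4 and 203 in sgScramble tumours (2.19 ± 0.40, adjusted p = 0.0014), also without overlap. In TDM culture Oas3 had 0 and 15.2 with sgNlrc5, against 7.94 and 8.49 with sgScramble, below the filter.

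Oas1g (ENSMUSG00000066861) shares 54.1% of its transcript's 50-base words with Oas1a and Oas1a shares 56.9% of its own with Oas1g, so their separate values are uncertain. Oas1g had 1.12 and 2.91 normalised counts with sgNlrc5, against 25.8 and 7.61 with sgScramble, in TDMa culture, under the filter, and 472, 335, 298 and 413 against 170.1, 134, 156 and 184 in tumours (1.22 ± 0.16, adjusted p = 1.8e-04). Oas1b (ENSMUSG00000029605), the flavivirus resistance gene of mice, is truncated in common inbred strains including C57BL/6, from which B16 came. It had 15.7 and 2.91 with sgNlrc5, against 34.4 and 31.4 with sgScramble, in TDMa culture (-2.07 ± 0.54, adjusted p = 0.0055). The sgNlrc5 mean lay below the filter, which Oas1b met there only through its sgScramble libraries. In tumours the Oas1b values were 209.6, 159.8, 125 and 165 with sgNlrc5, against 59.8, 42, 65.6 and 106 with sgScramble (1.31 ± 0.26, adjusted p = 0.002). The groups did not overlap in either setting, but the culture call ended without sgNlrc5 replicate 2 or sgScramble replicate 1 or 2 or without the intensity trend (-2.13 to -1.02, adjusted p = 0.064 to 0.17).

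Oasl1 (ENSMUSG00000041827) and Oasl2 (ENSMUSG00000029561) encode OAS-like proteins, of which mouse OASL1 is known to restrain translation of Irf7 and OASL2 keeps ubiquitin-like domains beside enzyme activity. In TDMa culture Oasl2 had 15.7 and 9.69 with sgNlrc5, against 80.4 and 50.4 with sgScramble (-2.27 ± 0.35, adjusted p = 5.0e-05). In tumours Oasl2 had 1239, 946, 1007 and 1590.3 with sgNlrc5, against 373, 207, 464 and 981 with sgScramble (1.43 ± 0.36, adjusted p = 0.008), where sgScramble replicate 4 lay above the lowest sgNlrc5 library. Oasl1 changed least of the family in TDMa culture, at 64.1 and 59.1 with sgNlrc5, against 87.1 and 94.2 with sgScramble (-0.55 ± 0.21, adjusted p = 0.047), and that call ended without sgNlrc5 replicate 1 or 2 or sgScramble replicate 1 or 2, with quantile normalisation or with voom (-0.61 to -0.37, adjusted p = 0.052 to 0.23). In tumours Oasl1 rose without overlap (1.25 ± 0.21, adjusted p = 8.1e-04). All 7 family members were higher in tumours, beside 19.7% of all genes, and all 5 tested were lower in TDMa culture, beside 16.9%. Of those 5, Oas1a, Oas1b and Oas2 met the filter only through their sgScramble libraries. In TDM culture the 6 tested had log2 fold changes between -0.11 and 0.62, with no call.

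MX proteins are dynamin-like GTPases that form rings around viral nucleocapsids. Mx1 (ENSMUSG00000000386) is carried as a defective allele in most inbred mouse strains, C57BL/6 among them, and in the same strains the other gene, Mx2 (ENSMUSG00000023341), is likewise known as defective. Mx1 had 75.3 and 50.4 normalised counts with sgNlrc5 in TDMa culture, against 81.3 and 114 with sgScramble (-0.64 ± 0.24, adjusted p = 0.045), a call that ended without sgNlrc5 replicate 2 or sgScramble replicate 1 or 2, without the intensity trend or with quantile normalisation (-0.88 to -0.35, adjusted p = 0.081 to 0.42). In tumours Mx1 had 489, 438, 209.8 and 449 with sgNlrc5, against 123, 167, 223 and 437 with sgScramble (0.83 ± 0.35, adjusted p = 0.081). Of the sgNlrc5 tumours, replicate 3 alone fell inside the sgScramble range, and Mx1 passed without sgNlrc5 replicate 3 or sgScramble replicate 4 (1.11 to 1.18, adjusted p = 0.0086 to 0.018).

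Mx2 had 20.2 and 20.3 with sgNlrc5 in TDMa culture, against 45 and 41.9 with sgScramble (-1.06 ± 0.31, adjusted p = 0.012), with tight and separate groups, and the call ended without sgScramble replicate 1 or 2 (-1.11 to -1.01, adjusted p = 0.07 to 0.098). In tumours Mx2 had 164, 150.1, 116 and 188 with sgNlrc5, against 49.4, 42, 83.5 and 126 with sgScramble (1.14 ± 0.30, adjusted p = 0.011). The sgScramble replicate 4 of Mx2 lay just above the lowest sgNlrc5 tumour. In TDM culture neither MX gene passed (0.21 for Mx1 and -0.34 for Mx2), and sgNlrc5 replicate 1 was the lowest library for both. The 2 genes share 4.77% and 6.71% of their 50-base words.

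ISG15 is joined to target proteins by the E1 enzyme UBA7, the E2 enzyme UBE2L6 and, in mice, the ligase HERC6, and USP18 removes it and also dampens the type I interferon receptor. Isg15 (ENSMUSG00000035692) had 59.6 and 80.4 normalised counts with sgNlrc5 in TDMa culture, against 355 and 242 with sgScramble, a log2 change of -2.06 ± 0.19 (limma adjusted p = 9.9e-08). In tumours Isg15 had 841, 671, 644 and 922 with sgNlrc5, against 324, 252, 339 and 896 with sgScramble (0.94 ± 0.31, adjusted p = 0.03). Only sgScramble replicate 4 brought the tumour groups into overlap. The tumour call of Isg15 ended without sgNlrc5 replicate 1 or 4 or sgScramble replicate 1, 2 or 3 or without the intensity trend (0.72 to 0.94, adjusted p = 0.062 to 0.083).

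Usp18 (ENSMUSG00000030107) had 22.5 and 31 with sgNlrc5 in TDMa culture, against 212 and 145 with sgScramble (-2.68 ± 0.24, adjusted p = 8.3e-08). In tumours Usp18 had 512, 461, 435 and 622 with sgNlrc5, against 187, 117, 231 and 295 with sgScramble (1.35 ± 0.23, adjusted p = 9.9e-04). The groups were separate in both. In TDM culture Usp18 stood at 0.75 ± 0.24 (adjusted p = 0.33), the second largest value of that setting, with values of 233 and 512 with sgNlrc5, against 243 and 174 with sgScramble. Replicate 1 of sgNlrc5 lay between the 2 sgScramble libraries there, and Usp18 passed without sgNlrc5 replicate 1 or sgScramble replicate 1 or with the replicate block (0.75 to 1.31, adjusted p = 7.9e-07 to 0.011).

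Herc6 (ENSMUSG00000029798) changed less than its partners, at 139 and 168 with sgNlrc5, against 229 and 177 with sgScramble, in TDMa culture (-0.39 ± 0.16, adjusted p = 0.058). It passed there without sgNlrc5 replicate 2, at a mean of at least 50, with equal sums or with the replicate block (-0.53 to -0.39, adjusted p = 0.027 to 0.048). In tumours Herc6 was at 0.69 ± 0.34 (adjusted p = 0.13), with sgScramble replicates 3 and 4 inside the sgNlrc5 range, and passed without sgScramble replicate 4 (0.998, adjusted p = 0.023). The enzymes before it were lower in TDMa culture and higher in tumours: Uba7 changed by -0.91 ± 0.21 in TDMa culture and 1.18 ± 0.23 in tumours, and Ube2l6 by -0.94 ± 0.14 and 1.32 ± 0.28, all 4 past the test.

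**Figure D5:**
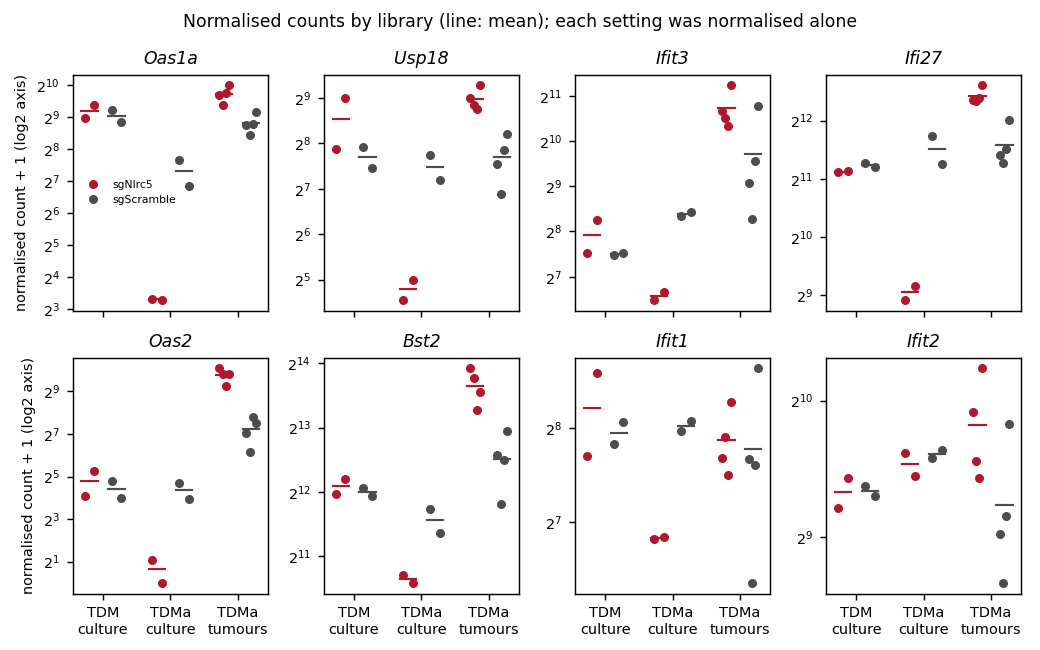
Normalised counts plus 1 on a log2 axis in every library for 8 effector genes, with sgNlrc5 in red left of sgScramble in grey. A line marks each group's mean of the values before the log. Oas1a, Usp18, Ifi27, Oas2 and Bst2 lie below the control in TDMa culture and above it in tumours. Ifit3 and Ifit1 lie below it in TDMa culture and overlap it in tumours, and Ifit2 overlaps it in both. Levels compare only within a table.

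Among genes acting at membranes, BST2 (tetherin) ties budding virus to the cell surface and IFITM3 blocks fusion in endosomes. Bst2 (ENSMUSG00000046718) had 1664 and 1531 normalised counts with sgNlrc5 in TDMa culture, against 3405 and 2629 with sgScramble (-0.91 ± 0.078, adjusted p = 3.9e-08). In tumours Bst2 had 15513, 13954, 9889.7 and 12057 with sgNlrc5, against 6089, 3574, 5744 and 7919 with sgScramble (1.18 ± 0.21, adjusted p = 0.0012). Both settings had separate groups. Ifitm3 (ENSMUSG00000025492) had 931 and 875 with sgNlrc5 in TDMa culture, against 2373 and 1727 with sgScramble (-1.16 ± 0.093, adjusted p = 1.4e-08), and rose in tumours by 1.18 ± 0.19 (adjusted p = 6.1e-04), with values of 8595, 8793, 6982 and 9149 with sgNlrc5, against 3861, 2549, 3449.7 and 5462 with sgScramble. These tumour groups were separate as well.

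Rtp4 (ENSMUSG00000033355), a chaperone of some receptors that also binds flavivirus replication complexes, had 30.4 and 34.9 with sgNlrc5 in TDMa culture, against 306 and 173 with sgScramble, a log2 change of -2.79 ± 0.24 (adjusted p = 3.3e-08). In tumours Rtp4 had 731, 589.8, 592 and 872 with sgNlrc5, against 263, 114, 280.3 and 567 with sgScramble (1.38 ± 0.36, adjusted p = 0.0097). Even sgScramble replicate 4 stayed below the lowest sgNlrc5 tumour, though narrowly. Shisa5 (ENSMUSG00000025647), an endoplasmic reticulum protein gene first known from cell death, changed by -0.36 ± 0.064 in TDMa culture and 0.80 ± 0.099 in tumours, small changes with little spread (adjusted p = 2.3e-04 and 1.3e-04). In TDM culture these 4 genes lay between -0.0095 and 0.23, none called, though Ifitm3 passed without sgScramble replicate 1 (0.30, adjusted p = 0.047) and Rtp4 passed without sgNlrc5 replicate 1 (0.84, adjusted p = 0.0079).

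RSAD2 (viperin) makes a chain-terminating nucleotide, CMPK2 is the neighbouring nucleotide kinase that feeds it, and ISG20 is an exonuclease that degrades RNA. Rsad2 (ENSMUSG00000020641) had 386 and 426 normalised counts with sgNlrc5 in TDMa culture, against 608 and 585 with sgScramble (-0.56 ± 0.083, adjusted p = 3.8e-05). In tumours Rsad2 had 3201, 2958, 1901 and 3567 with sgNlrc5, against 1331, 1023, 1749 and 2331 with sgScramble (0.88 ± 0.24, adjusted p = 0.012), with sgScramble replicate 4 above the lowest sgNlrc5 library. Cmpk2 (ENSMUSG00000020638) had 32.6 and 32.9 with sgNlrc5 in TDMa culture, against 87.1 and 92.3 with sgScramble (-1.42 ± 0.24, adjusted p = 1.1e-04). The culture groups of both genes were separate. In tumours Cmpk2 was at 0.79 ± 0.26 (adjusted p = 0.029), and the call ended without sgNlrc5 replicate 1 or 4 or sgScramble replicate 1 or 2 or without the intensity trend (0.51 to 0.81, adjusted p = 0.055 to 0.083). Isg20 (ENSMUSG00000039236) did not pass in TDMa culture (-0.60 ± 0.39, adjusted p = 0.26) or in tumours (0.63 ± 0.33, adjusted p = 0.15), where it passed without sgScramble replicate 4 or with the replicate block (0.63 to 0.99, adjusted p = 0.0096 to 0.024).

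In TDM culture Rsad2 had 726 and 1493 with sgNlrc5, against 997 and 922 with sgScramble, so the control lay between the 2 sgNlrc5 libraries. The log2 fold change was 0.12 ± 0.19 (adjusted p = 0.9), and Rsad2 was called in opposite directions depending on which sgNlrc5 library stayed: -0.40 without replicate 2 (adjusted p = 0.027) and 0.64 without replicate 1 (adjusted p = 2.1e-04). Without sgNlrc5 replicate 1, a further 6 genes passed as higher in TDM culture, Ifit3, Isg15, Usp18, Oasl2, Rtp4 and Parp14, and the median log2 fold change was 0.51. Without sgNlrc5 replicate 2 it was -0.15. At an unadjusted p under 0.05, 3 of 34 effector genes and 1084 of 11989 genes passed in TDM culture, and voom on the recovered reads called 0 of the 34. Ifi44 held the largest value there, 1.39 ± 0.60 (adjusted p = 0.52), on at most 16 reads per library.

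PARP9 and DTX3L form a complex that ubiquitinates and ADP-ribosylates targets near DNA breaks and in interferon signalling, PARP14 also transfers ADP-ribose, and PARP12 binds RNA and blocks viral translation. Parp9 (ENSMUSG00000022906) had 61.8 and 59.1 normalised counts with sgNlrc5 in TDMa culture, against 292 and 207 with sgScramble (-2.01 ± 0.18, adjusted p = 8.1e-08). Dtx3l (ENSMUSG00000049502), its divergent neighbour, had 49.5 and 61 with sgNlrc5, against 171 and 155 with sgScramble (-1.55 ± 0.19, adjusted p = 3.9e-06). Parp14 (ENSMUSG00000034422) changed by -1.44 ± 0.16 (adjusted p = 1.1e-06), and none of the 3 had overlapping groups in TDMa culture. In tumours the 3 rose by 0.84 to 1.10, again without overlap. Parp9 had 675, 673, 721 and 961 with sgNlrc5, against 508, 231, 406 and 498 with sgScramble (0.93 ± 0.22, adjusted p = 0.0061). Parp12 (ENSMUSG00000038507), listed only in tumours, had 125, 56.8, 105 and 116 with sgNlrc5, against 29.9, 19.1, 25.8 and 61.7 with sgScramble, and sgNlrc5 replicate 2 fell under sgScramble replicate 4 (1.61 ± 0.35, adjusted p = 0.0038).

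Ddx60 (ENSMUSG00000037921), a helicase gene, had 375, 245, 246 and 374 normalised counts in sgNlrc5 tumours, against 86.2, 29.6, 103 and 138 in sgScramble tumours (1.95 ± 0.38, adjusted p = 0.0019), with every sgNlrc5 tumour above every sgScramble tumour. It was not listed in TDMa culture, and in TDM culture stood at 0.14 ± 0.34 (adjusted p = 0.94). Znfx1 (ENSMUSG00000039501), a helicase that senses RNA at mitochondria, had the tightest tumour contrast of this group, at 1589, 1644, 1701 and 2084 with sgNlrc5, against 796, 896, 938 and 965 with sgScramble (0.96 ± 0.10, adjusted p = 5.0e-05). Its culture change was small but separate, at 696 and 703 with sgNlrc5, against 855 and 885 with sgScramble (-0.31 ± 0.064, adjusted p = 7.9e-04). Helz2 (ENSMUSG00000027580), a helicase and nuclear receptor coactivator, changed by -0.37 ± 0.12 in TDMa culture (adjusted p = 0.018) and by 0.74 ± 0.12 in tumours (adjusted p = 6.7e-04). The culture call of Helz2 ended without sgNlrc5 replicate 2 or sgScramble replicate 1, without the intensity trend or with quantile normalisation (-0.37 to -0.20, adjusted p = 0.053 to 0.33).

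Samd9l (ENSMUSG00000047735), an inhibitor of growth and translation, passed in TDMa culture and not in tumours. In TDMa culture Samd9l had 353 and 315 with sgNlrc5, against 740.5 and 667 with sgScramble (-1.07 ± 0.088, adjusted p = 2.2e-08). In tumours it had 984, 1039, 735 and 1228 with sgNlrc5, against 738, 650.2, 881 and 1003 with sgScramble (0.28 ± 0.16, adjusted p = 0.19), with overlapping groups, and it passed without sgNlrc5 replicate 3 (0.42, adjusted p = 0.037).

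Of the remaining genes, Xaf1 (ENSMUSG00000040483), a pro-apoptotic antagonist of XIAP, had 20.2 and 14.5 normalised counts with sgNlrc5 in TDMa culture, against 159 and 88.5 with sgScramble (-2.72 ± 0.30, adjusted p = 1.1e-06). In tumours Xaf1 had 1246, 1102, 892 and 1333 with sgNlrc5, against 411, 357, 487 and 714 with sgScramble (1.25 ± 0.19, adjusted p = 5.1e-04). The groups were separate in both settings. Ifi27 (ENSMUSG00000064215), a small membrane protein gene of the interferon response, had 485 and 574 with sgNlrc5 in TDMa culture, against 3392 and 2445 with sgScramble, the smallest adjusted p of the set there (-2.45 ± 0.10, adjusted p = 1.9e-12). In tumours Ifi27 had 5199, 5171, 5349.9 and 6228 with sgNlrc5, against 2718, 2468, 2928 and 4124 with sgScramble (0.87 ± 0.14, adjusted p = 6.9e-04), also separate. Ifi35 (ENSMUSG00000010358), which partners with NMI, changed by -1.08 ± 0.16 in TDMa culture and 0.92 ± 0.22 in tumours (adjusted p = 3.1e-05 and 0.0056).

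Epsti1 (ENSMUSG00000022014), an interferon-induced gene of epithelial and immune cells, had 196, 98.7, 112 and 111 in sgNlrc5 tumours, against 36.8, 16.2, 34.8 and 74.1 in sgScramble tumours (1.79 ± 0.38, adjusted p = 0.0033). Sp110 (ENSMUSG00000070034), a nuclear body protein gene, had 309.9, 198, 212 and 341 with sgNlrc5, against 101.1, 39.1, 74.6 and 144 with sgScramble (1.66 ± 0.33, adjusted p = 0.0023). Neither gene was listed in TDMa culture, and in tumours each group lay apart from the other. Lgals9 (ENSMUSG00000001123), which encodes galectin-9, was lower in TDMa culture (-0.63 ± 0.058, adjusted p = 8.9e-08) and did not pass in tumours (0.40 ± 0.15, adjusted p = 0.059), where it passed without sgNlrc5 replicate 1 or 2 or sgScramble replicate 1 (0.48 to 0.51, adjusted p = 0.019 to 0.045). Ifi44 (ENSMUSG00000028037) did not pass in tumours either, with the highest of its 8 values in sgScramble replicate 4 (168, 138, 113 and 201 with sgNlrc5, against 87.3, 41.1, 113 and 279.6 with sgScramble, 0.55 ± 0.44, adjusted p = 0.35), and passed without sgScramble replicate 4 (1.02, adjusted p = 0.027).

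The difference between the 2 lines was tested as the guide effect in TDMa culture minus that in TDM culture. It was below 0 in all 31 genes and passed in 23 (median -1.38), where 10.8% of all genes were called below 0. Oas1a differed by -4.09 ± 0.29 (limma adjusted p = 6.3e-11), Usp18 by -3.43 ± 0.35 and Ifi27 by -2.34 ± 0.13 (adjusted p = 7.4e-13). Of these, Oas1a met the filter in TDMa culture only through its sgScramble libraries. The 8 that did not pass were Ifit2, Oasl1, Mx1, Mx2, Herc6, Isg20, Helz2 and Znfx1. The call of Rsad2 (-0.68 ± 0.22, adjusted p = 0.03) ended without TDMa culture sgNlrc5 replicate 1 or 2, TDM culture sgNlrc5 replicate 2, TDMa culture sgScramble replicate 1 or 2 or TDM culture sgScramble replicate 2 or without the intensity trend (-0.75 to -0.15, adjusted p = 0.062 to 0.4). For Ifit3b (-1.66 ± 0.48) it ended without TDMa culture sgNlrc5 replicate 2, TDM culture sgNlrc5 replicate 2 or TDM culture sgScramble replicate 2 or without the intensity trend (-1.66 to -1.11, adjusted p = 0.051 to 0.12), and for Shisa5 (-0.35 ± 0.098) without TDM culture sgNlrc5 replicate 2 or TDM culture sgScramble replicate 2 or without the intensity trend (-0.35 to -0.25, adjusted p = 0.063 to 0.082). The count was 14 without the intensity trend, and 28 without TDM culture sgNlrc5 replicate 1, when Helz2, Herc6, Mx1, Mx2 and Znfx1 passed as well.

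The guide effect in tumours minus that in TDMa culture was above 0 and passed in 31 of 31 genes (median 2.22, beside -0.068 over all genes), where 15.0% of all genes were called above 0. Oas1a, with the same limit in TDMa culture, differed by 4.87 ± 0.30 (adjusted p = 1.5e-08), Usp18 by 4.03 ± 0.34 and Ifi27 by 3.31 ± 0.22. Ifit1 (1.46 ± 0.41, adjusted p = 0.01) and Samd9l (1.35 ± 0.19, adjusted p = 6.1e-05) passed here although neither had a call in tumours. The call of Ifit2 (0.70 ± 0.26) ended without TDMa tumours sgNlrc5 replicate 1 or 4, TDMa culture sgNlrc5 replicate 2, TDMa tumours sgScramble replicate 1, 2 or 3 or TDMa culture sgScramble replicate 1 or 2, without array weights or without the intensity trend (0.53 to 0.73, adjusted p = 0.065 to 0.17), and that of Herc6 (1.08 ± 0.40) without TDMa tumours sgNlrc5 replicate 1, 2 or 4, TDMa culture sgNlrc5 replicate 1 or 2, TDMa tumours sgScramble replicate 1 or 2 or TDMa culture sgScramble replicate 1, without array weights or without the intensity trend (0.75 to 1.21, adjusted p = 0.051 to 0.16). For Isg20 (1.24 ± 0.44) it ended without TDMa tumours sgNlrc5 replicate 3 or 4, TDMa culture sgNlrc5 replicate 2, TDMa tumours sgScramble replicate 1, 2 or 3 or TDMa culture sgScramble replicate 1, without array weights or without the intensity trend (0.95 to 1.24, adjusted p = 0.057 to 0.14), for Mx1 (1.47 ± 0.45) without TDMa culture sgNlrc5 replicate 2 or TDMa culture sgScramble replicate 2, without array weights or without the intensity trend (1.18 to 1.47, adjusted p = 0.056 to 0.076) and for Ifit1 without array weights (1.46, adjusted p = 0.071). Leukocyte markers were higher in sgNlrc5 tumours, as given above. In TDMa culture 3 of them were tested, of which Cd68 was higher (0.52) and 0 were lower. No such difference between settings is given here for the markers, and their part in that of the effector genes was not tested.

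The genes that carry the interferon signal to these effectors were read from a list of 35. In TDM culture 0 of the 28 tested were called, with a median log2 fold change of 0.050. In TDMa culture 16 of 28 were lower and 0 higher (median -0.34), and in tumours 20 of 32 were higher and 1 lower (median 0.73). Over all genes 16.9% were called lower in TDMa culture and 19.7% higher in tumours. Of the receptor genes in TDMa culture, Ifnar1 (0.11), Ifnar2 (0.10) and Ifngr1 (0.22) did not pass and Ifngr2 was lower by a small margin (-0.18 ± 0.068, adjusted p = 0.045), while Jak1, Jak2 and Tyk2 did not pass. Irf9 changed by -1.63 ± 0.16, Irf7 by -1.98 ± 0.33 and Irf1 by -0.74 ± 0.11, all lower, and Stat2 did not pass (-0.30 ± 0.14, adjusted p = 0.11). Among RNA sensors, Ddx58 (RIG-I) changed by -1.92 ± 0.098, Dhx58 by -2.65 ± 0.29 and Ifih1 (MDA5) by -1.07 ± 0.16.

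In tumours the 4 receptor genes Ifnar1, Ifnar2, Ifngr1 and Ifngr2 rose, by 0.63, 0.95, 0.40 and 0.77, and the 3 kinase genes did not pass. Irf7 rose by 1.64 ± 0.30, Stat2 by 0.87 ± 0.20 and Irf9 by 0.40 ± 0.12, while Irf1 was at 0.70 ± 0.29 (adjusted p = 0.076). The feedback inhibitor gene Socs1 rose by 0.98 ± 0.32 and Socs3 was at -0.083 ± 0.17 (adjusted p = 0.73). Of the list's other antiviral genes, 9 of 14 tested were higher in tumours and 1 lower, beside 19.7% of all genes in each direction. The higher ones included the nucleic acid sensor gene Zbp1 (1.73 ± 0.53), Tor3a (1.23 ± 0.14), Apobec3 (1.02 ± 0.25) and Ddx58 (0.94 ± 0.14). In TDMa culture 9 of the 11 tested in that group were lower and 0 higher, beside 16.9% of all genes called lower. Among those that did not pass in tumours, Eif2ak2, the kinase PKR, was at -0.11 ± 0.12 (adjusted p = 0.52), and Zc3hav1, the zinc finger antiviral protein, at -0.017 ± 0.086 (adjusted p = 0.89). Pnpt1, a mitochondrial RNA exonuclease, was the gene that fell (-0.36 ± 0.091, adjusted p = 0.0082). Ifng, the interferon made by T and NK cells, was at 1.97 ± 0.73 in tumours and did not pass (adjusted p = 0.0502). Its sgScramble mean lay below the filter, which Ifng met only through its sgNlrc5 libraries. With so few reads, the value settles neither a rise nor its absence. Ifnb1 and Ifna4 were listed in no table.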

How the data were processed

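RNA of 16 libraries was measured. Per the labels, the deposited values were log2 of a DESeq2-normalised count plus 1, in 1 table each for TDM culture, TDMa culture and TDMa tumours, each scaled alone. Tools in the submitters' processing notes were STAR 2.7.10a, FastQC 0.12.0 and DESeq2 1.36.0, beside the build GRCm39 (mm39), with no step assigned to any. Libraries were made with the NEBNext Ultra II Directional kit per the labels' protocols. The counting tool, strandedness and listing rule are not given in the sources used here. Any listed gene had, over all libraries of its table, no fewer than 20 reads in culture and 40 in tumours.

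Low values were whole multiples of 1 read in 100% of cases (within 0.1, up to 2000 multiples), which gave the reads per library. Their intervals cover counting error only. No replicate pair agreed within sampling noise (chi-square per degree of freedom at least 2.1). Per table, genes at a mean of at least 10 entered limma 3.58.1 under R 4.3.3, on the deposited log2 scale with its pseudocount of 1. The fit moderated variances along intensity and took sgNlrc5 minus sgScramble, two-sided, at a Benjamini-Hochberg adjusted p of 0.05 over all genes tested. Fold changes keep this scale, which understates changes of low genes, and errors are standard errors. Differences between settings were limma interaction terms with array weights. The fits were tested on simulated data.

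The genes and lists were chosen with earlier results of these data known. Named in full were the IFIT, OAS, MX and ISG15 genes and, in each other role group, those with the largest changes in TDMa culture and tumours. Same-numbered libraries deviated together with correlations between -0.21 and 0.11, so the numbers were not taken to pair them. Alternatives were no trend, other filters, pseudocounts, scalings, voom on recovered reads, no array weights, a replicate block and each library left out. Sequences came from RefSeq GRCm38.p6 tables, matched by symbol, and no coordinates of the deposited build were used. Some genes of the lists are not reported here.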

Additional observations from a re-analysis of the deposited data

Results flagged for a closer look

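In tumours, sgNlrc5 replicate 3 stood far below the other sgNlrc5 libraries for Mx1 (209.8 normalised counts) and for Helz2 (411.4 normalised counts). Its distance to the nearest library took 0.868 and 0.831 of the group's log2 range, above Dixon's critical value for 4 samples. These were 2 of 76 groups examined, and chance alone gives such a value in about 1 group in 20.

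The guide effect on the log2 scale differed between TDMa culture and TDM culture, by the interaction test, in 23 genes. Each difference was negative, and over all genes 10.8% were called below 0. Calls that ended under alternatives are given above. By role it was -1.38 for Ifit1, -2.19 for Ifit3, -1.66 for Ifit3b, -4.09 for Oas1a, -2.69 for Oas1b, -4.04 for Oas2, -2.71 for Oasl2, -2.45 for Isg15 and -3.43 for Usp18. Among genes of membranes and nucleotides it was -0.997 for Bst2, -1.33 for Ifitm3, -0.35 for Shisa5, -3.01 for Rtp4, -0.68 for Rsad2 and -1.48 for Cmpk2. The rest were -2.10 for Parp9, -1.52 for Dtx3l, -1.50 for Parp14, -1.22 for Samd9l, -3.16 for Xaf1, -2.34 for Ifi27, -1.23 for Ifi35 and -0.68 for Lgals9.

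Between tumours and TDMa culture the guide effect differed in 31 genes by the same test, each time positive. Over all genes 15.0% were called above 0, and the calls of Ifit1, Ifit2, Herc6, Isg20 and Mx1 ended under alternatives, as given above. By role it was 1.46 for Ifit1, 0.70 for Ifit2, 3.07 for Ifit3, 3.25 for Ifit3b, 4.87 for Oas1a, 3.38 for Oas1b, 6.38 for Oas2, 1.80 for Oasl1, 3.71 for Oasl2, 1.47 for Mx1, 2.20 for Mx2, 3.0 for Isg15, 4.03 for Usp18 and 1.08 for Herc6. Next came 2.08 for Bst2, 2.34 for Ifitm3, 1.15 for Shisa5, 4.17 for Rtp4, 1.44 for Rsad2, 2.22 for Cmpk2 and 1.24 for Isg20. The remaining values were 2.94 for Parp9, 2.39 for Dtx3l, 2.54 for Parp14, 1.11 for Helz2, 1.27 for Znfx1, 1.35 for Samd9l, 3.97 for Xaf1, 3.31 for Ifi27, 2.0 for Ifi35 and 1.03 for Lgals9. The 2 values of Oas2 rest on 1 sgNlrc5 read in TDMa culture. Oas1a and Oas1b, like Oas2, met the filter in TDMa culture only through their sgScramble libraries.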

How the results depend on the processing

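The direction of the median held in TDMa culture, in tumours and in both differences under each alternative run. With each library left out in turn, the number of genes called was 23 to 27 in TDMa culture (median -1.38 to -1.12), 26 to 35 in tumours (median 0.85 to 1.30), 20 to 28 for TDMa culture minus TDM culture (median -1.82 to -1.07) and 27 to 31 for tumours minus TDMa culture (median 1.97 to 2.49). TDM culture had 0 to 7 calls and a median of -0.15 to 0.51, and Rsad2 there ran from -0.40 to 0.64. Without the intensity trend TDMa culture minus TDM culture had 14 calls, and the cause was not tested. The replicate block gave 1 call in TDM culture (Usp18), 29 in TDMa culture, 32 in tumours, 25 for TDMa culture minus TDM culture and 31 for tumours minus TDMa culture. The labels used here tie same-numbered libraries by number only, and correlations of their deviations lay between -0.21 and 0.11. With 2 libraries per guide, replicates 1 and 2 of a culture table give the same value. Such correlations cannot exclude a shared batch. Of the single genes' values under alternatives, 21 in TDMa culture, 31 in tumours, 20 for TDMa culture minus TDM culture and 34 for tumours minus TDMa culture kept their direction and lost their call. Depth limits the genes listed near 10 normalised counts, such as Oas2 in TDMa culture. With 2 libraries per guide, each culture result rests on few residual degrees of freedom.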
